A study of Mus musculus with 3 samples.

Results

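Of 110 ion channel genes with a probe on the arrays, 74 were well above background in at least 1 of 3 pools of whole mouse embryos, and they are described here. They were chosen by symbol, as genes named Scn with a number and a or b (sodium channels), Kcn (potassium channels) or Cacn (calcium channels), matched through the probe's RefSeq accession. The reference table holds 138 such symbols, and 13184 genes of all kinds were measured in the same way. The choice itself used the signal, so the number of members seen is a description and supports nothing. Most of the 74 are voltage-gated channels or their auxiliary subunits. The 8 inward rectifier genes (Kcnj) and the 6 two-pore genes (Kcnk) form channels without a voltage sensor. Kcnq1ot1 is a non-coding RNA read antisense to Kcnq1 that forms no channel. Of the other 59, Kcnn1, Kcnn2 and Kcnn4 are opened by calcium, so the name voltage-gated fits fewer than 59 of the 74. The gamma genes (Cacng) were classed by symbol only, and whether their products join calcium channels was not examined.

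All embryos lacked MafF and MafK. The triple null pool was MafF-/-:MafG-/-:MafK-/- at stage E10.5. The MafG-intact pools kept both copies of MafG (MafF-/-:MafG+/+:MafK-/-), one taken at E10.5 and the other at E9.5. No wild-type embryos were analysed here. Each pool held 3 whole embryos of mixed background and was read on 1 array, so there is no spread between replicates to set a difference against, no test was made, and every value below describes a single pool. The comparisons ask what differs between genotypes at one stage, between stages in one genotype, and between the triple null pool and the younger pool. The first and the second share the E10.5 MafG-intact array, so a gene that is high there alone gives mirror-image differences in them.

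Voltage-gated channels open when the membrane depolarises: sodium channels carry the upstroke of the action potential, calcium channels turn it into calcium entry, and potassium channels end it. The pore is formed by the alpha subunit, and auxiliary subunits set how many channels reach the membrane and how fast they open and close. In embryos of this age the heart already beats on calcium and sodium currents, while the first neurons of the brain, spinal cord and ganglia are only beginning to add their channels. The small Maf proteins removed here bind DNA as partners of the CNC and BACH factors at antioxidant response elements and Maf recognition elements.

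Across the whole series, 69.1% to 70.4% of 41174 probes were well above background. Levels are given below as the log2 signal minus the 75th percentile of the array (a signal of 1078 in the triple null pool, 1420 in the MafG-intact pool of E10.5 and 1064 in that of E9.5), and the 3 values of a gene are always in that order. The Mafg probe read -7.74, 0.48 and 1.03, and was not above background in the triple null pool. Maff and Mafk read above background on all arrays, and whether those probes lie in the deleted parts is not known here. The pools differed in sex: Xist was detected in the E10.5 MafG-intact pool only, and 4 Y-linked genes in the other pools only. The part of sex in any difference from that pool was not tested. Kcne1l is the single member on the X chromosome, and none lies on Y. Markers of neurons (14 of 14), heart muscle (9 of 10), skeletal muscle (6 of 9), red cells (8 of 8), neural progenitors (6 of 6), endothelium (4 of 4), epithelium (4 of 4) and macrophages (3 of 4) were above background in at least 1 pool, as a whole embryo would hold.

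Channel genes were dim. The median over the 74 members of the mean level was -3.91, against -0.75 over all genes measured. Of the members, 61 were above background on all 3 arrays, 8 on a pair of arrays and 5 on 1 array. By array, 67 were above background in the triple null pool, 70 in the MafG-intact E10.5 pool and 67 in the MafG-intact E9.5 pool. At the edge of the choice, the dimmest member's brightest detected probe read -6.55, and the brightest probe of a gene left out read -6.65 (Cacng1, the skeletal muscle calcium channel gamma subunit). Among the 36 left out were the calcium channels Cacna1d and Cacna1e, the M-current channel Kcnq3, Kcna2 of the axon, the large-conductance channel Kcnma1 and the sodium channels Scn7a and Scn11a. Their transcripts were not distinguishable from background in whole-embryo RNA on these arrays.

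At E10.5, 63 members were above background on both arrays, and 8 of them were at least 2-fold lower without MafG, while none was at least 2-fold higher. Over all genes 5.45% were at least 2-fold apart, 4.47% being lower and 0.982% higher. The members' share of lower genes was 12.7%. The 8 were the potassium channel genes Kcnj8, Kcnd2, Kcnmb2, Kcnn1, Kcnk10, Kcne2 and Kcnn4 and the calcium channel gene Cacna2d3. Of the 63 members, 40 were below 0 and 23 above, while 41.6% of all genes were below 0, and the median log2 difference was -0.13 against 0.06 for all genes. Of the same 63, 38 differed by less than 0.5 on the log2 scale, as did 10303 of 12529 genes of all kinds. The members ranged from -2.55 to 0.69.

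These calls depend on how background is handled. With normexp background correction, which adds an offset of 50 signal units to every spot, no member was at least 2-fold apart, where 2.13% of all genes were, and the median difference became 0.075 against 0.11 for all genes. Of the 63 members 14 changed sign, all of them below 0 without it, down to -0.73 for Cacna1a. Among them were Scn8a, Cacna1c, Cacnb4, Cacng5, Cacng7, Kcnc2 and Kcnt1. All 8 genes stayed lower, at -0.94 for Cacna2d3, -0.92 for Kcnj8, -0.87 for Kcnn1, -0.69 for Kcnn4, -0.31 for Kcnd2, -0.28 for Kcnk10, -0.12 for Kcnmb2 and -0.09 for Kcne2. The signal of 5 of the 8 in the triple null pool was below that offset, from 7.91 for Kcnd2 to 19.4 for Kcnk10, while Kcnn1 read 90.6, Cacna2d3 112 and Kcnn4 153. The share of genes called also moved with the level. Below a mean level of -4, 5 of 25 members and 14.3% of all genes were at least 2-fold apart, and from -4 upward 3 of 38 members (7.89%) and 3.74% of all genes.

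Kcnj8 codes Kir6.1, the pore of the ATP-sensitive potassium channel of blood vessel smooth muscle and pericytes. Its level was -6.56 in the triple null pool, -4.01 in the MafG-intact E10.5 pool and -6.74 in the MafG-intact E9.5 pool, with a spot-to-spot SD at these levels of 0.33, 0.12 and 0.30. The E10.5 MafG-intact pool stood alone above the others. The mean difference over 2 probes was -2.55, but the dimmer probe was detected in the E10.5 MafG-intact pool only, so its -2.21 is set against a background reading. The brighter probe, detected in all pools at -4.98, -2.10 and -5.46, gave -2.88, or 7.38-fold. Abcc8 and Abcc9, which code the sulphonylurea receptors that complete such channels and were looked up after the values of Kcnj8 were seen, differed by -0.03 and -0.22. Of 8 markers of pericytes, also chosen then and counting Abcc9 again, 7 were below 0 and none was at least 2-fold apart. These markers had a median of -0.33, with Rgs5 lowest at -0.99. Their summed linear level was 9.88, 12.5 and 10.2 times the 75th percentile, and their part in the Kcnj8 value was not tested.

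Kcnd2 codes Kv4.2, an alpha subunit of the fast A-type potassium current of dendrites and heart muscle. Its level was -7.09, -5.07 and -7.58, and the E9.5 value was not above background. The mean difference at E10.5 was -2.02 over 2 probes. The probe detected in both pools gave -2.57, or 5.93-fold, and the other, at -1.48, was not above background in the triple null pool. Kcnip4, a calcium-binding protein that attaches to Kv4 channels, was not above background in the triple null pool (-6.73) and read -4.65 and -5.53 in the MafG-intact pools. It was at least 4.24-fold lower than at E10.5 and at least 2.30-fold lower than at E9.5. It was the one member 2-fold or more from both MafG-intact arrays in the same direction, by bounds only, and rested on 1 probe printed once. With normexp its difference was -0.29 from the E10.5 and -0.19 from the E9.5 MafG-intact pool, so neither was 2-fold. Kcnd3, the other Kv4 gene seen, read -6.42, -6.46 and -6.22 and differed by 0.03.

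Of the other subunits that tune potassium channels, Kcne2 read -5.97, -4.85 and -6.73. Its product is a single-pass protein that joins Kcnq1 and Kcnh2 in heart, stomach and choroid plexus, and its difference at E10.5 was -1.13, or 2.18-fold. Its pore partners differed less, Kcnq1 by -0.24 and Kcnh2 by -0.07. Kcnmb2, the subunit that makes large-conductance calcium-activated channels inactivate, read -6.82, -5.37 and -6.64. Its difference was -1.45, or 2.72-fold, and the pore gene of that channel, Kcnma1, was not above background in any pool. The related Kcnmb4 was bright, at 1.10, 1.57 and 1.17, and differed by -0.47.

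Kcnn1 codes SK1, a small-conductance channel opened by calcium through calmodulin and known for the afterhyperpolarisation of neurons. It read -3.57, -2.27 and -3.72, a difference of -1.30 or 2.47-fold at a spot SD of 0.08 and 0.07. Kcnn4, the intermediate-conductance channel through which red cells lose potassium, read -2.81, -1.81 and -2.54. Its difference, 2.00-fold, lay at the threshold, and on the log2 scale it was -0.97 with quantile normalization and -0.98 with scaling on spike-in probes, which ends the call. Of the 8 red cell markers, 6 were at least 2-fold lower in the same comparison, where 4.47% of all genes were. These markers had a median of -1.17, and their summed level was 345, 603 and 409 times the 75th percentile. Their part in the Kcnn4 value was not tested. Kcnn2 read -3.84, -4.21 and -3.71, a difference of 0.37.

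Kcnk10 codes TREK-2, a two-pore background channel gated by stretch, lipids and temperature and found in sensory neurons and brain. It read -5.80, -4.51 and -5.99, a difference of -1.28 or 2.44-fold, and was the lowest of the 6 two-pore genes. The other five ranged up to 0.51 for Kcnk1 (-1.41, -1.91 and -1.34), and Kcnk3, the acid-sensitive TASK-1, was alike in all pools at -4.59, -4.59 and -4.70. Cacna2d3 codes an alpha2delta subunit, a glycoprotein that brings calcium channels to the surface and to nerve terminals. It read -3.27, -1.93 and -3.38, a difference of -1.34 or 2.53-fold at a spot SD of 0.08 and 0.05. Its relative Cacna2d1, the subunit of heart and muscle and a target of gabapentin, was just short of 2-fold at -2.46, -1.48 and -2.37, with a difference of -0.98 and probes at -1.02 and -0.93. Cacna2d2 read -3.68, -4.09 and -3.96, a difference of 0.41 with all 4 probes above 0.

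**Figure D1:**
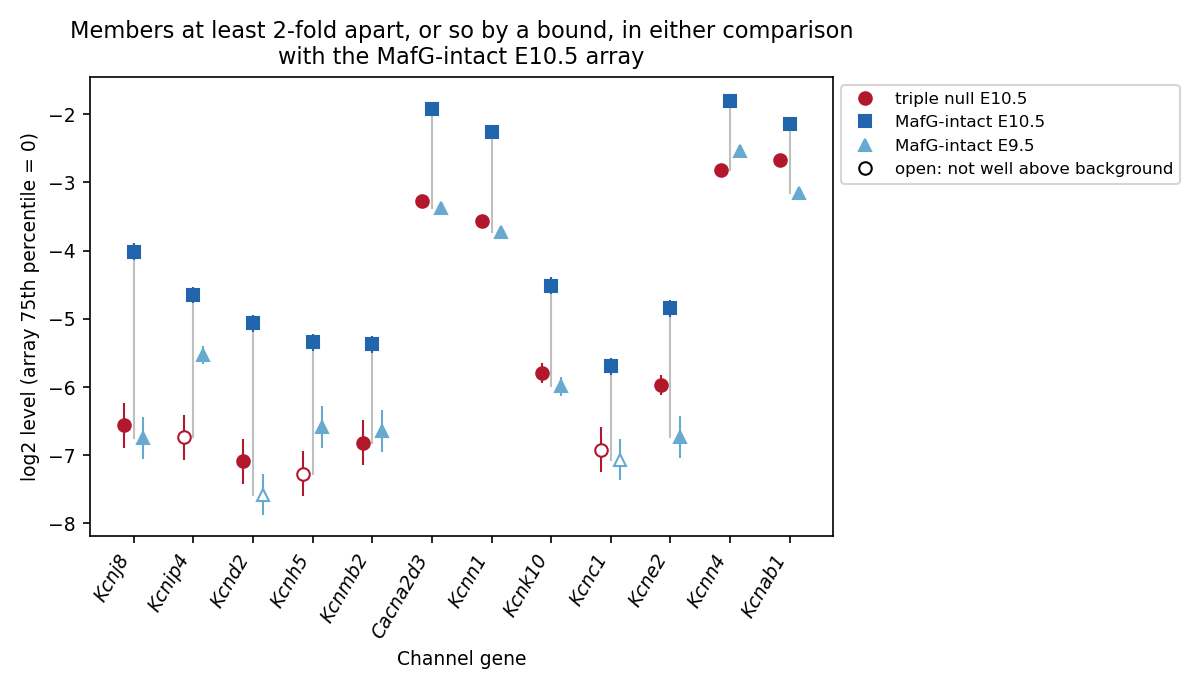
The log2 level, with the 75th percentile of each array at 0, is plotted for each of the 12 members at least 2-fold apart, by value or by a bound, in either comparison that uses the MafG-intact E10.5 array (triple null, circles; MafG-intact E10.5, squares; MafG-intact E9.5, triangles; open symbols, not well above background). Bars are the median spot SD of probes of that level and array, which is not an error between pools; in all 12 genes the square lies above the circle and the triangle, as for Kcnj8 at -4.01 against -6.56 and -6.74.

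A further 11 members were above background on 1 of the E10.5 arrays, so that only a bound can be given. In the triple null pool 3 of them were lower by a bound of 2-fold or more, where 24.3% of 556 such genes over the whole array were, and none was 2-fold higher by a bound (7.19% of such genes). These were Kcnip4, Kcnh5 at least 3.06-fold and Kcnc1 at least 2.33-fold. With normexp the differences were -0.29 for Kcnip4, -0.03 for Kcnh5 and 0.05 for Kcnc1, so none was 2-fold and that of Kcnc1 turned. Kcnh5 codes an ether-a-go-go potassium channel of the brain and read -7.27, -5.34 and -6.59, the first not above background. Kcnc1 codes Kv3.1 of fast-spiking neurons and read -6.92, -5.69 and -7.06, detected in the E10.5 MafG-intact pool alone, with both probes lower (-1.24 and -1.21). The other eight had bounds under 2-fold, from at least 1.98-fold lower for the kidney and brain inward rectifier Kcnj16 to at least 1.85-fold higher for Kcnmb1, the smooth muscle subunit of the large-conductance channel. With the bounds entered, the median difference was -0.19, and over the 61 members seen on all arrays it was -0.11. Kcnj9, Kcnc1 and Kcnu1 are members through the E10.5 MafG-intact pool alone, and Cacng8 and Kcna4 through the triple null pool alone. The choice of members thus fixed the side of their bounds in any comparison with that pool, and the median with bounds supports nothing.

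Promoter sequences are shown for 5 of these members, since small Maf dimers bind known elements. Kcnip4 is shown because its window held a Maf match, so the 5 do not show how common such matches are. The other lower genes Cacna2d3, Kcnd2, Kcnmb2 and Kcnn4 also have windows, which are not printed. Those windows held neither a Maf match nor an antioxidant response element core. RefSeq (GRCm38.p6) gave 84 windows of 300 bases, 250 before the start and 50 after, for 55 of the 74 members. The motifs searched, on both strands, included the antioxidant response element core TGACNNNGC and a Maf half-element form, with N for any base. That form is TGCTGA followed directly by NTCA, and is a loose, partial match to a Maf recognition element. The others were the left and right RE1 parts TTCAGCACC and GGACAGC bound by the repressor of neuronal genes, the TATA box TATAAA and the GC box GGGCGG. The 250 bases before the start are printed 5′ to 3′ on the gene's strand, with every match in capitals. They lie at chr5:49285660-49285909 on the minus strand (Kcnip4), chr8:70857009-70857258 minus (Kcnn1), chr16:92292139-92292388 plus (Kcne2), chr12:98578214-98578463 minus (Kcnk10) and chr6:142571615-142571864 minus (Kcnj8). Kcnip4 holds the Maf half-element form with T at its N, and Kcnn1 and Kcne2 an antioxidant response element core. Kcnk10 holds a pair of RE1 right parts, and Kcnj8 no match.
Kcnip4: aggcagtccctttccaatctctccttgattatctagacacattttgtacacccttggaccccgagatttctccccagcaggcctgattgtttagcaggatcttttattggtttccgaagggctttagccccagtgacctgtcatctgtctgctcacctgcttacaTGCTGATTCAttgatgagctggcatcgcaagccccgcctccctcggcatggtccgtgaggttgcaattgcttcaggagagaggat
Kcnn1: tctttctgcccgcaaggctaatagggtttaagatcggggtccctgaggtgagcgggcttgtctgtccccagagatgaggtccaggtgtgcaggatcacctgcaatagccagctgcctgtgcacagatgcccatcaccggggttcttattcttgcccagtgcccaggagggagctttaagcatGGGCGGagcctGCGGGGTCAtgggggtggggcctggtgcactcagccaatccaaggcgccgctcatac
Kcne2: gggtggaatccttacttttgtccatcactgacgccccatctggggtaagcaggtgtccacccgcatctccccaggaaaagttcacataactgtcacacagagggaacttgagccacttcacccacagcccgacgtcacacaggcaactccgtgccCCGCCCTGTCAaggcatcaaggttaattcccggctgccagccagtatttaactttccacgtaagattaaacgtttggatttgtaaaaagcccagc
Kcnk10: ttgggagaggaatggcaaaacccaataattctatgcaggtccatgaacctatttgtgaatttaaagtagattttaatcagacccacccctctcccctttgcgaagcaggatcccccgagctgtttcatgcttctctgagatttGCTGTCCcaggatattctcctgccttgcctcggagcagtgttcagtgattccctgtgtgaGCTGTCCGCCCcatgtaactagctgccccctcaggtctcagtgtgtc
Kcnj8: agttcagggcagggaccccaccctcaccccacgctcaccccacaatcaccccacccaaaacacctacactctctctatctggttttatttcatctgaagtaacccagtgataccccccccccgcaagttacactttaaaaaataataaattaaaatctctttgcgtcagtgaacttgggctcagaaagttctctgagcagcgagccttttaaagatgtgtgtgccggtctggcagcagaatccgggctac

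The match in Kcnip4, TGCTGATTCA, starts 85 bases before the transcript start. That form was in 1 of 84 member windows and in 0.423% of all 32851 windows of the table. The antioxidant response element core was in 14 of 84 member windows (16.7%), from 13 genes, and in 12.4% of all windows. In the Kcnn1 window shown it is GCGGGGTCA on the other strand, 57 bases before the start, and a second start of the gene has GCCGCGTCA 134 bases before. In Kcne2 it is GCCCTGTCA, 93 bases before the start, and overlaps a GC box there, as a GC box overlaps the nearer RE1 part in Kcnk10. Of the 8 lower genes, Kcnn1 and Kcne2 alone had this core. Other members with it were Cacna1c (-0.13 at E10.5), Scn8a (-0.23), Kcns3 (0.27), Cacnb4 (-0.68), Kcnab2 (-0.68) and Kcnc4 (0.50). Kcnab1 and Kcnq1ot1, lower by less than 2-fold, had it too. So did Kcnh5 and Kcnj16, lower by bounds of 3.06-fold and 1.98-fold, and Kcna4, higher by a bound under 2-fold. Whether the core goes with a lower level was not tested. The RE1 right part was in 10 member windows (11.9%) and 6.56% of all windows. Both RE1 parts stood together in Kcnh6 alone, 186 and 170 bases before the start, and Kcnh6 differed by -0.02. The TATA box was in 3 of 84 member windows (3.57%) and 13.6% of all windows, and the GC box in 39 (46.4%) and 35.7%. Median GC content was 57.8% in member windows and 52.7% in all. These matches are letters in a window and were not tested for binding.

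Genes with a Cacn symbol lay mostly below 0 at E10.5. All 4 pore genes (alpha1) were below 0, at -0.73 for Cacna1a of nerve terminals, -0.67 for Cacna1h and -0.52 for Cacna1g of the low-threshold T type, and -0.13 for Cacna1c, the main channel of the heart. The class median was -0.59, but 0.00 with normexp correction. Over all genes with a Cacn symbol, those classed as gamma by symbol only included, 12 of 14 were below 0. Their median was -0.44 and turned to 0.01 with normexp. The beta subunits, which bind the pore from inside the cell, ran from -0.68 (Cacnb4) through -0.20 (Cacnb3) and -0.19 (Cacnb1) to 0.49 (Cacnb2). The genes of the gamma class ran from -0.64 (Cacng5) to -0.11 (Cacng7). The medians of the beta and gamma classes changed sign with normexp. Cacng6 and Cacng8, of the same gamma family, were detected in the triple null pool and not in the MafG-intact pool of that stage, with bounds of at least 1.74-fold and 1.77-fold higher. The alpha2delta median, -0.98 over 3 genes, stayed below 0 with each scaling and with normexp (-0.74).

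Cacna1g shows the size of the difference in a well-measured pore gene. It read -1.88, -1.36 and -1.75, at a spot SD of 0.06, 0.05 and 0.07. Both of its probes were lower, by -0.75 and -0.28, so the probes differed from each other by more than the spot SD. Cacna1c of the heart read -3.28, -3.15 and -3.26, nearly the same in all pools.

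The sodium channels were few and close to 0. Of the alpha genes, Scn8a stood at -0.23 and Scn4a of skeletal muscle at 0.05. Scn10a, the channel of pain neurons, had 1 probe above background in the triple null pool and another in the MafG-intact E10.5 pool, with differences of 0.56 and -1.36, so its difference has no settled direction. The median over the 4 alpha genes, -0.09, changed sign with normexp and with quantile normalization. The beta subunit gene Scn2b differed by -0.29 and was among the brighter members at -0.08, 0.21 and -0.10.

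Among voltage-gated potassium alpha genes, 15 of 19 were above background on both E10.5 arrays. Kcnd2 was the single one at least 2-fold apart, 9 were below 0 and 6 above, and the median was -0.03, which changed sign with normexp and with quantile normalization. Away from it, Kcnh8, of the ether-a-go-go family, read -5.39, -4.49 and -5.29 (-0.91) and the axonal Kcna1 -1.08, -1.40 and -0.67 (0.32). Kcnh2, which carries the repolarising hERG current of the heart, read -0.60, -0.53 and -0.73. Kcnf1, a silent subunit that modifies other channels, and Kcnh6 differed by -0.03 and -0.02. The Kv3 genes Kcnc2 and Kcnc4, whose channels close fast, stood at -0.30 and 0.50 at E10.5. Kcna7, of the shaker family, read -2.06, -2.38 and -1.77 (0.33). Kcnh1 had a bound of at least 1.67-fold lower, and Kcna4 read -6.48, -6.97 and -7.08, above background in the triple null pool alone. Members named here and below that were neither 2-fold apart nor the nearest to or farthest from 0 in their class were picked after their values were seen.

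The potassium auxiliary genes had a median of -0.23 over 9 genes, which stayed below 0 with each scaling and with normexp (-0.09). They ran from Kcne2 at -1.13 to Kcnab3, a cytoplasmic beta subunit, at 0.69. Kcnab3 read -3.93, -4.61 and -3.76, so here the MafG-intact E10.5 pool was the low one. The Kv4-binding Kcnip1 and Kcnip3 stood at 0.15 and 0.56 at E10.5, and the beta subunit gene Kcnab2 read -3.35, -2.67 and -3.24 (-0.68). Kcne1, the partner of Kcnq1 in the slow heart current, differed by -0.08, and Kcne3, a relative of Kcne2 and brighter at -0.48, -0.24 and -0.69, by -0.23. X-linked Kcne1l read -0.09, 0.56 and -0.17, a difference of -0.65. The pools with Y-linked signal were the pair of low ones, and the part of sex in this value was not tested.

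The calcium- or sodium-activated potassium genes had the lowest median among potassium classes, -0.74 over 6 genes, with Kcnn1, Kcnn4 and Kcnmb2 at least 2-fold lower and a median of -0.33 with normexp. Kcnt1, a channel opened by sodium, read -5.48, -5.06 and -5.55 (-0.43), and Kcnu1, the sperm relative of Kcnma1, was above background in the E10.5 MafG-intact pool alone, at -6.46. The inward rectifiers spread widely, with a median of 0.10 over the 6 compared by value. It was -0.17 over all 8 with bounds entered, but the choice of members fixed the side of the Kcnj9 bound. Kcnj8 stood at -2.55, Kcnj10 of glia at -0.75, Kcnj12 at 0.07, Kcnj14 at 0.13 and Kcnj4 at 0.67 (-3.30, -3.98 and -3.19). Kcnj9, a G-protein-gated channel of brain, was above background in the E10.5 MafG-intact pool alone, at -6.55. Leaving out Kcnj, Kcnk and Kcnq1ot1 left 6 of 50 genes at least 2-fold lower (12%, against 4.47% of all genes) and a median of -0.23. The calcium-opened Kcnn1 and Kcnn4 were among the 6. The two-pore genes Kcnk6 (-0.76, -1.08 and -0.91) and Kcnk13 (-2.59, -2.69 and -2.53) differed by 0.31 and 0.10, and the acid- and base-sensitive Kcnk5 (-4.16, -4.44 and -4.06) by 0.28. Kcnq1ot1 itself read 1.38, 1.43 and 1.15.

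**Figure D2:**
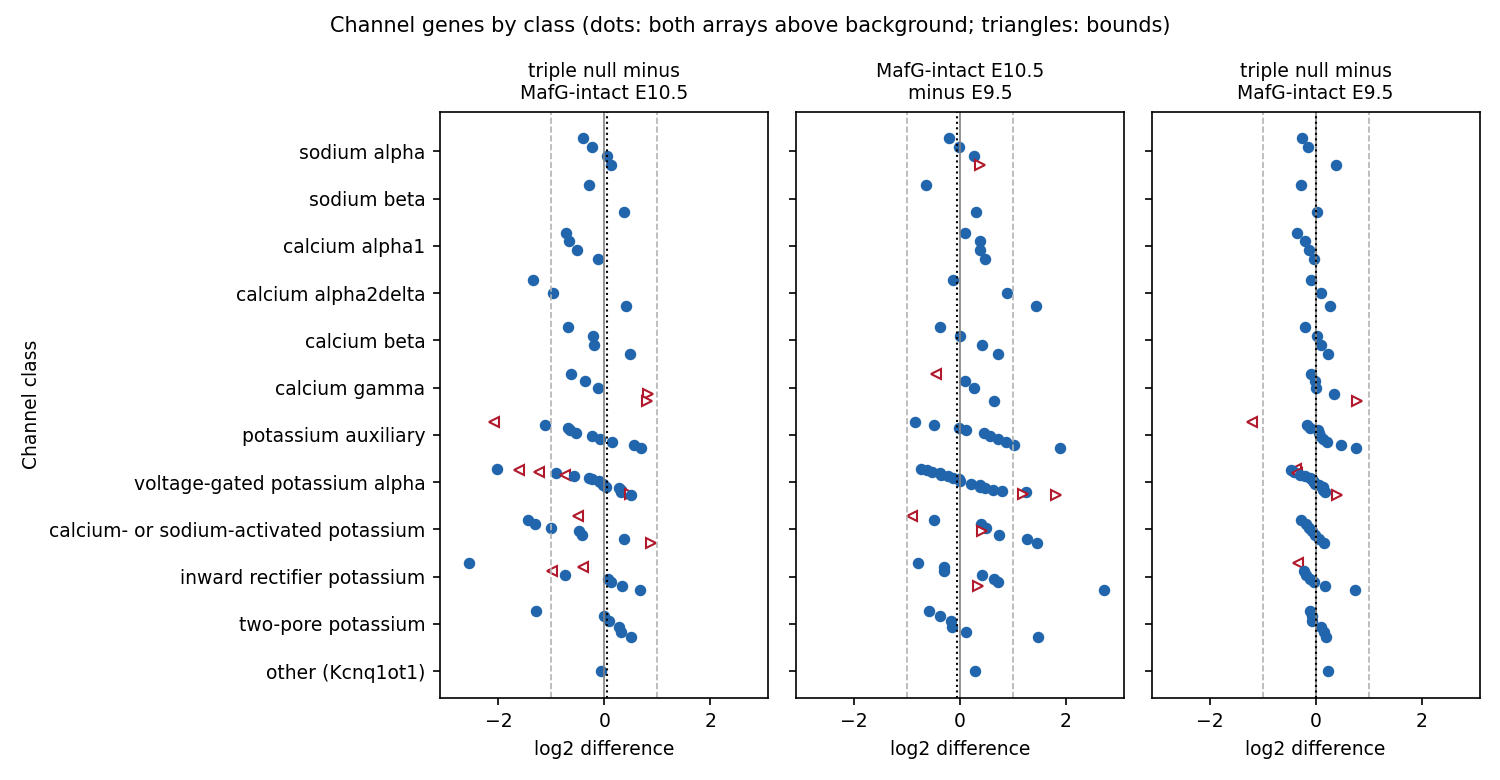
Each point is 1 channel gene in its class, placed at its log2 difference in each of the 3 comparisons; dots are genes above background on both arrays and red triangles are bounds pointing the way the true difference may lie. Dashed lines mark 2-fold and the dotted line the median of all genes; in the third panel all 63 dots lie between -0.46 and 0.76.

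In the MafG-intact embryos, 65 members were above background at both stages, and 8 were at least 2-fold higher at E10.5 than at E9.5 and none lower. Over all genes 5.19% were at least 2-fold apart, 4.12% higher at E10.5 and 1.07% lower. They were Kcnj8 at 2.73 (3.37, or 10.3-fold, from the probe detected at both stages, the other being below background at E9.5), Kcne2 at 1.89 (3.70-fold), Kcnk10 at 1.48, Kcnn1 at 1.45, Cacna2d3 at 1.44, Kcnmb2 at 1.27, Kcnh5 at 1.25 and Kcnab1 at 1.01. Kcnab1 codes a beta subunit that makes shaker channels inactivate, and read -2.67, -2.14 and -3.15; it lost the call with quantile normalization (0.96), with normexp (0.65) and with no filter on dim probes (0.43). The median over members was 0.27, against -0.05 over all genes, and 24 of 65 were below 0 where 57.2% of all genes were. With normexp correction 1 member stayed at least 2-fold apart, where 2.04% of all genes did, and Kcnh5 turned to -0.068. The median became -0.087 against -0.10 for all genes, so its sign changed while it stayed above that of all genes.

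By a bound, Kcnd2 was at least 3.53-fold and Kcnc1 at least 2.29-fold higher at E10.5, of 7 members above background at 1 of the stages, and 22% of such genes over the array had a bound of at least 2-fold in that direction (9.97% in the other). All 4 calcium alpha1 genes were above 0, between 0.10 (Cacna1c) and 0.47 (Cacna1h), although their median of 0.38 became -0.04 with normexp. At the other end stood Kcnab3 at -0.85, Kcnj4 at -0.78 and Kcna1 at -0.73, which were brighter at E9.5 and kept that sign with normexp and each scaling.

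**Figure D3:**
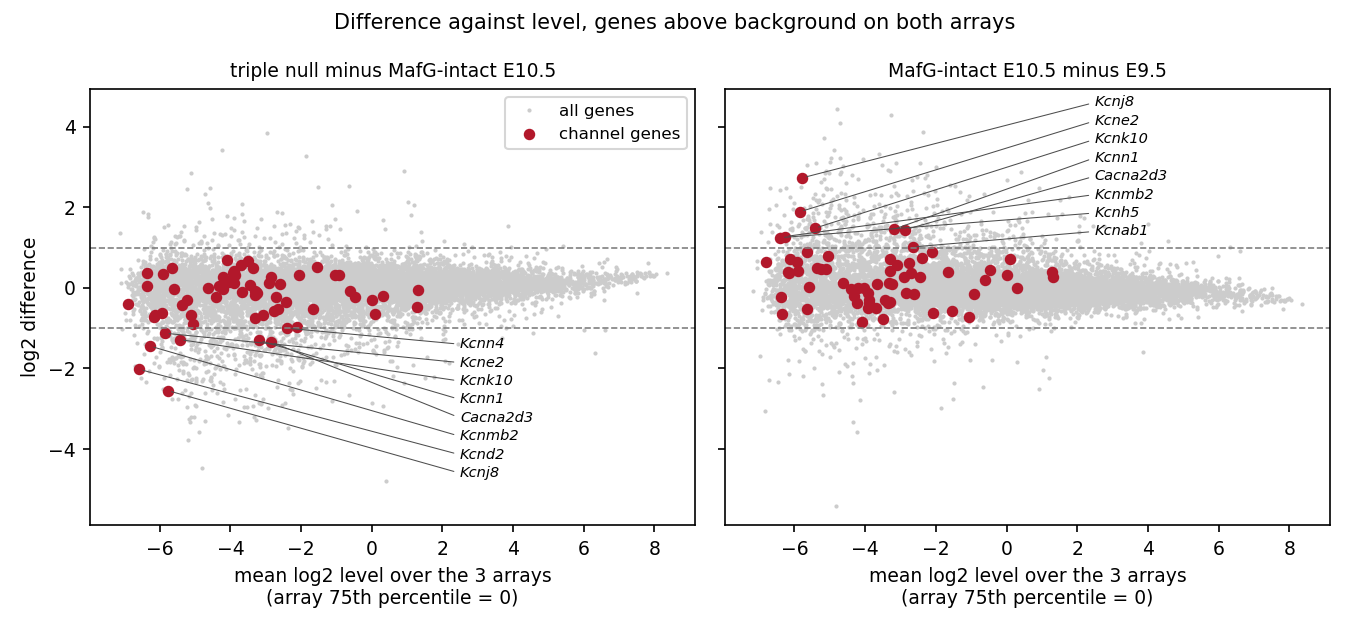
The log2 difference is plotted against the mean log2 level over the 3 arrays for genes above background on both arrays of the comparison (grey, all genes; red, channel genes). Dashed lines mark 2-fold; labelled members lie mostly at the dim left end, where grey points spread widest as well, and the share of all genes at least 2-fold apart is 14.3% below a level of -4 and 3.74% above it in the first comparison.

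When the triple null pool was set against the younger MafG-intact pool, no member of 63 was at least 2-fold apart by value, where 0.783% of all genes were (0.527% lower and 0.256% higher). The members ran from -0.46 for Kcna5, a channel of the atrium, to 0.76 for Kcne2, and the median was -0.02 against 0.01 for all genes. A difference of less than 0.5 was seen in 61 of 63 members and in 11990 of 12521 genes of all kinds. Of the members 34 were below 0 and 29 above, and 48.5% of all genes were below 0. Kcnj11, the ATP-sensitive channel of the pancreas and heart, was next to Kcne2 at 0.74 and read -5.54, -5.87 and -6.28. Of the 8 genes called at E10.5, the 7 compared here by value lay between -0.27 (Kcnn4) and 0.76 (Kcne2), and Kcnd2 was not above background at E9.5. Kcnip4 had a bound of at least 2-fold lower, the only one among 8 members above background on 1 of these arrays, where 11.3% of such genes had one and 6.72% had one on the higher side. With normexp the Kcnip4 difference was -0.19, which is not 2-fold.

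Sorted by tissues each channel is known from, with some genes in more than one list (Kcne3 and Kcnj11 in those of heart and skeletal muscle), 25 of 46 listed brain and nerve channels and 18 of 23 listed heart channels were measured. The brain and nerve channels had 3 of 21 at least 2-fold lower at E10.5 (Cacna2d3, Kcnn1 and Kcnk10), or 14.3%, where 4.47% of all genes were. Their median was -0.30, which became 0.09 with normexp. The 14 neuron markers moved further: 11 were at least 2-fold lower, all were below 0, and their median was -1.84 (-1.77 with normexp). Their summed level was 12.0, 43.4 and 12.1 times the 75th percentile, so it was highest in the pool where the brain and nerve channels, summing to 3.55, 4.31 and 3.86, were highest too. None of the neuron markers was below background in any pool. In whole-embryo RNA fewer cells of a type and less RNA per cell cannot be told apart, and the part of the neuron content in the channel values was not tested.

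The heart channels and the heart markers differed in the sign of their medians at E10.5. Of 18 heart channels, Kcnd2, Kcne2 and Kcnj8 were at least 2-fold lower (16.7%, against 4.47% of all genes), and each is also known from other tissues. In the list 13 were below 0 and the median was -0.11 (0.01 with normexp). Of 9 cardiac muscle markers all were above 0 and 4 were at least 2-fold higher, where 0.982% of all genes were. Their median was 0.85, with Myl7 at 1.03 and Nkx2-5 at 1.01. The marker sum was 203, 126 and 159 times the 75th percentile, and the heart channel sum 2.76, 3.32 and 2.61. Skeletal muscle markers were lower in 4 of 5 cases (median -1.54) and summed to 4.96, 8.41 and 4.13, while the 5 skeletal muscle channels measured on both arrays had a median of 0.05 and none was 2-fold apart. Other markers differed too. Of 4 macrophage markers 3 were measured: Tyrobp stood at -3.59, Aif1 and Cx3cr1, both below background without MafG, were lower by bounds of 6.44-fold and 4.77-fold, and they summed to 0.0212, 0.261 and 0.0273. All 4 epithelium markers were above 0, with a median of 0.67 and sums of 46.9, 27.8 and 48.5. Neural progenitor markers had a median of -0.23 and endothelium markers one of 0.12. The part of these cells in the channel values was not tested.

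**Figure D4:**
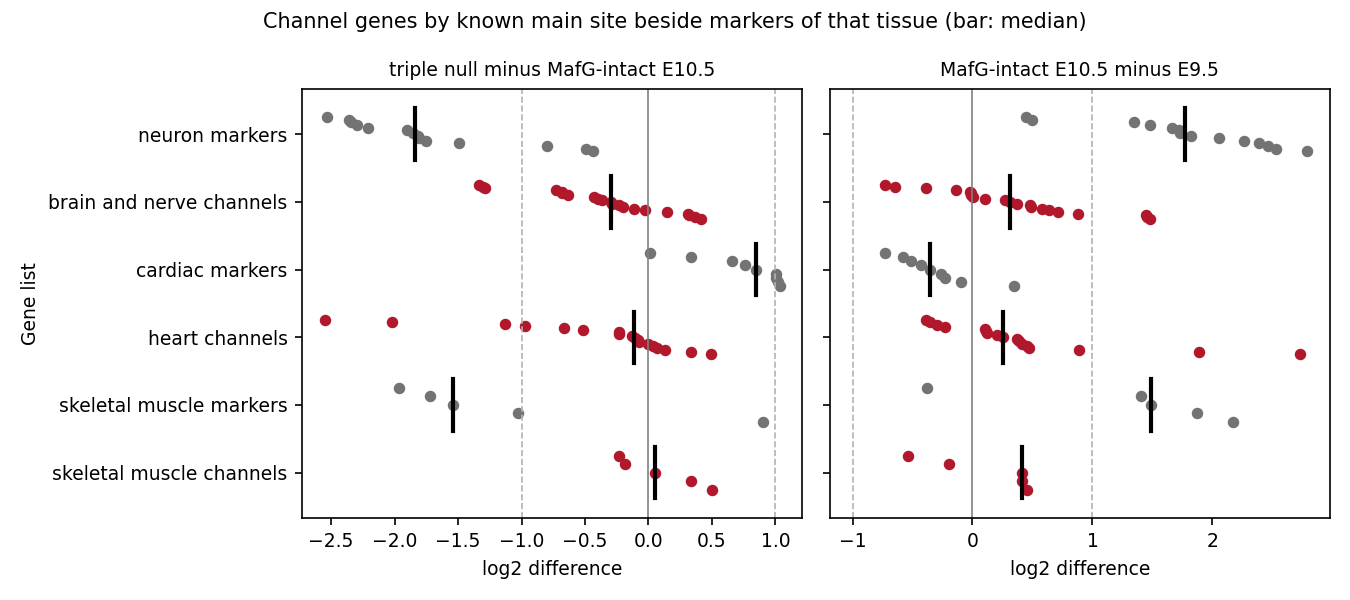
Each point is 1 gene at its log2 difference, with channel genes by known main site in red and marker genes of the same tissue in grey above them; black bars are list medians and dashed lines mark 2-fold. In the first panel the neuron markers centre on -1.84 and the brain and nerve channels on -0.30, and the cardiac markers lie above 0 where 13 of 18 heart channels lie below it.

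Genes that work with the channels but fall outside the symbols gave a similar spread. Of 39 listed, 29 were measured and 26 were above background on both E10.5 arrays. Of the 26, 2 were at least 2-fold lower (7.69%, against 4.47% of all genes) and 1 higher (0.982% of all genes). Their median was -0.33 (-0.04 with normexp). Cntn1, a cell adhesion protein that brings sodium channels to the axon, read -5.45, -3.68 and -5.44 (-1.77). Casq2, the calcium store protein of heart muscle, read -3.94 and -6.07 in the MafG-intact pools of E10.5 and E9.5 and differed by -2.06 at E10.5, while Casq1, its skeletal muscle form, read -1.30, -2.54 and -1.89 (1.24). Dpp6 and Dpp10, which join Kv4 channels as Kcnip4 does, differed by -0.72 and -0.82. The median of these genes with Amigo1, listed with them, was -0.72 and turned to 0.04 with normexp. Rest, the repressor that binds RE1 elements, read -0.23, -0.35 and -0.05 (0.12). At the stage comparison 3 of 27 partners were at least 2-fold higher at E10.5, where 4.12% of all genes were. They were Cntn1 (1.76), Casq2 (2.13) and the calcium release channel Ryr1 (1.04).

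Some members sit side by side in the genome with no protein-coding gene between them. The adjacent genes Cacng4 and Cacng5 of the gamma class, on chromosome 11, differed by -0.36 and -0.64 at E10.5. Kcna5 and Kcna1 on chromosome 6 differed by -0.10 and 0.32.

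The reliability of single members can be judged by repeat probes only. Of 21 members with several probes, 18 had all probes on 1 side of 0 at E10.5, 17 in the stage comparison and 9 in the comparison of the triple null pool with E9.5. The 245 probes printed 10 times had a median spot SD of 0.33, 0.26 and 0.30 below a level of -6, 0.15, 0.12 and 0.13 from -6 to -4, and 0.08, 0.07 and 0.07 from -4 to -2. Judged by gene level, Kcnmb2, Kcnd2 and Kcnj8 therefore have the least precise triple null values of the 8 lower genes, and Kcnn4, Kcnn1 and Cacna2d3 the most precise. The Kcnj8 level averages in a probe not above background there. Its detected probe, at -4.98, lies in the range with a spot SD of 0.15. At E10.5, 6 of the 63 members compared by value average in a probe that was not above background on 1 of the arrays, and for 2 of the 6 no probe was above it on both. The spot SD covers the spotting and reading of 1 array and leaves out the difference between embryo pools, which was not measured.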

How the data were processed

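Per the labels' protocols, amplified RNA of pooled whole embryos carried 1 dye, and the file headers give the 3 Agilent arrays the same slide and the same scan. The authors deposited scanner tables whose background-subtracted intensity comes from Agilent Feature Extraction 9.5.3.1 (protocol GE1-v5_95_Feb07, design 014868), per the file headers, and a value table that the authors deposited holds the same intensity, rounded (largest difference 0.497%).

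Control spots and outlier spots were left out, the log2 intensity was taken minus the array's 75th percentile, and spots of a probe were averaged. A probe counted as above background when a share of at least 0.5 of its spots was well above background. Gene names came from RefSeq accessions in a table of GRCm38.p6. The array design names build mm7, so no probe coordinates are given. A gene's level is the mean over those of its probes that were detected on any array. A gene was called when above background on both arrays and at least 2-fold apart. A bound set the bright level against the higher of the gene's own level and the lowest level above background on the dim array (-6.95, -7.04 and -6.89). With 1 array per group no test, p-value or standard error was possible, and precision is limited by the 3 arrays. The 2-fold calls were checked on simulated levels with known changes, for genes above background on all 3 arrays. Both simulated arrays had the spot noise of the MafG-intact E10.5 array. Below a level of -6 its SD was 0.26, against 0.33 in the triple null and 0.30 in the MafG-intact E9.5 array, so the check was milder than these data. That check did not cover the scaling or the bounds.

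The rule for named genes took members 2-fold apart or with such a bound and, in each class, the members nearest to and (where none was apart) farthest from 0. The members, lists and rule were chosen with earlier results of these data known. Normexp used limma 3.58.1 in R 4.3.3 on median spot intensities; other work used Python 3.11.15, pandas 2.3.3, numpy 2.4.6 and matplotlib 3.10.9. Results for some members are not reported here.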

Additional observations from a re-analysis of the deposited data

How the results depend on the processing

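Each group was 1 array of 1 pool, so leaving out a replicate was not possible. No paired analysis was possible because the groups share fewer than 2 replicate numbers. With normexp the members at least 2-fold apart numbered 0 in triple null against MafG-intact E10.5 (all genes, 213 lower and 54 higher) and 1 in MafG-intact E10.5 against E9.5, and the medians were 0.075 and -0.087. Without a filter on dim probes, over all 110 genes, the counts were 17 for triple null against E10.5, 14 for the stages and 7 for triple null against E9.5 (7.59%, 7.50% and 3.16% of all genes), and the median between stages was 0.103. At 1.5-fold the counts were 19, 23 and 2, in the same order (13.8%, 13.6% and 3.03% of all genes), and at 3-fold 2 in each of the first pair (2.18% and 1.93%). Kcnh5 at -0.068 with normexp between stages was the 1 of 186 alternative values, for the 16 differences called by value, that changed sign, and it lost its call. A further 30 kept their sign but lost their call, 14 of them with normexp and 12 at 3-fold. Among all members compared by value, called or not, normexp changed the sign of 14 of 63, 15 of 65 and 9 of 63. The members' counts stayed within 1.5 times, and their medians within the spot spread, under quantile normalization, detected-gene median scaling, requiring detection on all arrays, the brightest probe and the deposited table. The same held for the alternatives added after the data were seen, which were spike-in scaling, no X or Y genes, and no Kcnj, Kcnk or Kcnq1ot1. Depth of signal limits members below a level of -6, where the spot SD is 0.26 to 0.33.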
